A study of Mus musculus with 28 samples.

Results

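The genes Hmga1, Hmga2, Igf2bp1, Igf2bp2 and Igf2bp3, 5 of the 25719 genes counted, were followed through bulk RNA-sequencing of mouse tail tendon fascicles, the collagen-rich bundles of the tail tendon. They were taken by family name, and the families were chosen by the measured CPM of Hmga2, which was higher in older transgenic tendon. The established comparison of genotypes is therefore given below as a description of these genes, with no p. The 28 libraries, 1 mouse each, were all from C57BL/6 mice. Fosl-2(Tg) mice carried a randomly inserted vector in which the MHC I promoter H2Kb drives murine Fosl2, an AP-1 transcription factor gene, followed by eGFP, and are used as a model of systemic sclerosis. Mice of that breeding without the vector (WT) served as controls. The early groups, aged 6 to 8 weeks, held 7 WT and 8 Fosl-2(Tg) mice, and all 15 were male. The established groups, older than 14 weeks, held 6 WT and 7 Fosl-2(Tg) mice, 11 of 13 female with 1 male in each genotype. Stage and sex therefore changed almost together.

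HMGA proteins are small chromatin proteins that bind the minor groove of AT-rich DNA through AT-hooks and bend it, which alters access for other transcription factors. IGF2BP proteins bind mRNAs, including the mRNA of the fetal growth factor Igf2, and affect their localization, stability and translation. Both families are abundant in the embryo and fall in most adult tissues, and they are called oncofetal because many tumors express them again. The let-7 microRNAs, which accumulate as tissues mature, repress several of these mRNAs, and the Lin28 proteins block let-7 maturation. In the fetus, Hmga2 is best known for its effect on body size and on mesenchymal tissues.

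The let-7 pairing sequences are shown because they link both families at the level of the transcript. The RefSeq table of mature microRNAs (names and sequences, GRCm38.p6) held 11 mouse microRNAs with the let-7 seed. Of these, 3 are printed 5′ to 3′ with the seed, bases 2 to 8, in capitals.
mmu-let-7a-5p: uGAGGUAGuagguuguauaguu
mmu-let-7g-5p: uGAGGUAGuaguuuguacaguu
mmu-miR-98-5p: uGAGGUAGuaaguuguauuguu

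The complement of the seed, CTACCTC, was searched on the transcript strand of the 3′ UTR of 1 transcript per gene (GRCm39, GENCODE release M39). Hmga2 held 4 matches in a 3′ UTR of 2984 bases, and Igf2bp1 also held 4, in 6337 bases. Hmga1, Igf2bp2 and Igf2bp3 held 1 match each, in 1183, 1784 and 2132 bases. Of 20742 genes with a 3′ UTR, 10.1% held at least 1 match and 12 genes held 4 or more. Among the 2721 genes whose 3′ UTR length was within 20% of that of Hmga2, 16.4% held a match and 0.0735% held as many as Hmga2. The 4 stretches of Hmga2, on the minus strand of chromosome 10, and those of the other members expressed in tendon are given as 29 bases in the transcript's sense, with the 7-base match in capitals. A match is a description of the letters and was not tested as a binding site.
Hmga2 match 1, chr10:120200119-120200147: acattcaatttCTACCTCagcatcagttg
Hmga2 match 2, chr10:120198882-120198910: actcctcaataCTACCTCtgaatgctaca
Hmga2 match 3, chr10:120198444-120198472: tttgcaaggaaCTACCTCcacacttccaa
Hmga2 match 4, chr10:120197586-120197614: aaaacacactaCTACCTCttaagtcccag
Igf2bp3, minus strand, chr6:49063711-49063739: tttttactcaaCTACCTCaggtattcagt
Igf2bp2, minus strand, chr16:21878213-21878241: acaaataaaagCTACCTCaggtgtttttt
Hmga1, plus strand, chr17:27782255-27782283: ctgttcacaaaCTACCTCtggacggttgt

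The first match of Hmga2 lies 21 bases into its 3′ UTR, and the others at 1258, 1696 and 2554. In Hmga2 match 1 and in the matches of Igf2bp2 and Igf2bp3 the capitals are followed by an adenine, which makes the 8-base form. Mature let-7 itself was not analysed here.

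**Figure D1:**
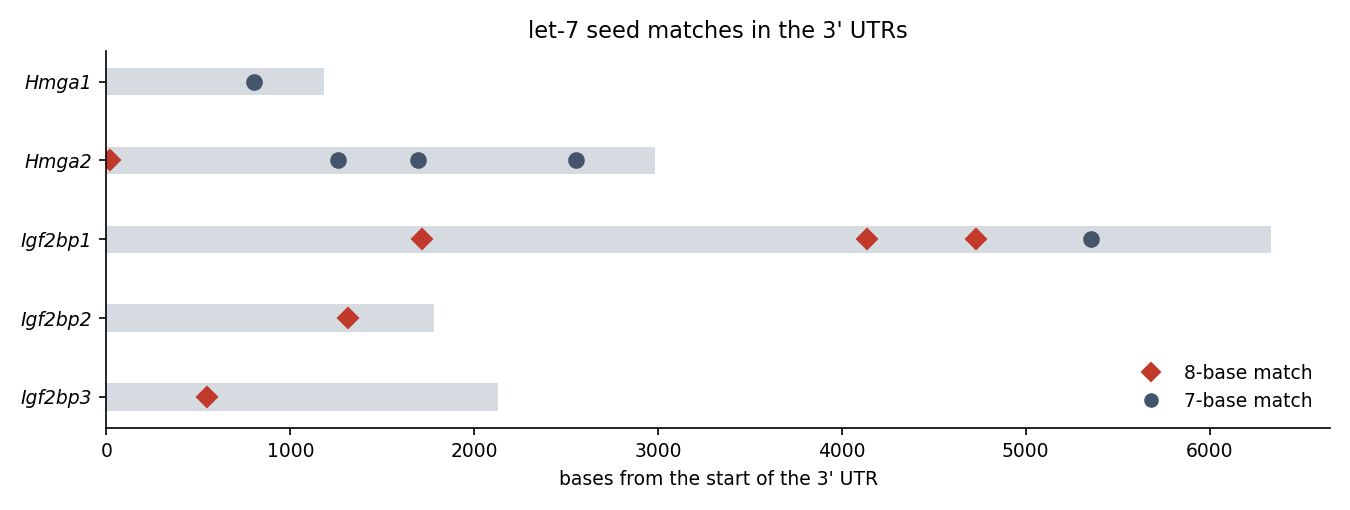
Positions of let-7 seed matches along the 3′ UTR (grey bar, bases from its start) of the 5 genes, with diamonds for 8-base and circles for 7-base matches. Hmga2 and Igf2bp1 hold 4 matches each and the other 3 genes hold 1 each.

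The libraries summed to between 9645598 and 66894396 counts. The level of a gene in a mouse is given as counts per 1000000 counts (CPM) after scaling of the library totals by the TMM method, which corrects for the share that a few very abundant genes take. Transcripts of tendon fibroblasts were abundant: the summed CPM of 8 markers, including the tendon transcription factor gene Scx and the collagen gene Col1a1, lay between 63567 and 419907 in early and in WT mice and between 2744 and 55703 in established Fosl-2(Tg) mice, with none of the 8 at 0 throughout a group. Skeletal muscle transcripts varied in all groups, from 149 to 53897 CPM over 10 markers. Fosl2, the gene in the transgene, averaged 102 ± 40.5 CPM (SD, n = 8) in the early transgenic mice against 88.7 ± 26.1 (n = 7) in WT, a log2 fold change of 0.20 (SE 0.24, edgeR adjusted p = 0.918). In the established groups it was 143 ± 15.8 CPM (n = 7) against 111 ± 32.7 (n = 6), a log2 fold change of 0.38 (SE 0.15, edgeR adjusted p = 0.141), and the groups overlapped. The Fosl2 levels of the genotypes thus overlapped at both stages.

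Hmga2 was expressed at a low level in early tendon of both genotypes and in established WT tendon, and stood far higher in established Fosl-2(Tg) tendon. The gene lies on chromosome 10 at 120197173–120313095, minus strand (GRCm39). In early WT mice it ranged from 2.08 through a median of 2.54 to 3.14 CPM, and in early Fosl-2(Tg) mice from 1.76 through 3.25 to 4.96. In established WT mice it ranged from 2.13 through 3.06 to 4.55 CPM. The 7 established Fosl-2(Tg) mice measured 7.81, 11.8, 13.6, 17.4, 18.6, 18.9 and 35.9 CPM, from 155 to 643 reads each. Every one of the 7 lay above every mouse of the other 3 groups, whereas those 3 groups overlapped one another. The mean was 17.7 ± 8.99 CPM (SD, n = 7) against 3.15 ± 0.832 (n = 6) in established WT, a ratio of 5.62. The fitted log2 fold change was 2.50 (SE 0.31), and 22 of the 15862 genes tested, 0.139%, had one at least as large. Groups that did not overlap, with Fosl-2(Tg) higher, were found for 1.48% of genes. Because Hmga2 was chosen for this difference, these values describe it and no p is attached. Hmga2 shares 263 and 182 exon bases with the noncoding RNA genes Gm51785 and 1700006J14Rik on the opposite strand. Neither was among the genes counted, and whether their reads entered the Hmga2 count was not tested.

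The mouse with the highest Hmga2, the male Fosl-2(Tg) replicate 5, also had the lowest summed tendon fibroblast markers, 2744 CPM. The mouse with the lowest Hmga2, replicate 4, had the highest, 55703 CPM. The 22 proliferation genes summed to between 139 and 230 CPM in established Fosl-2(Tg) and between 123 and 151 in established WT mice. Macrophage markers, 8 in all including the receptor gene Csf1r, summed to between 765 and 1380 CPM in these transgenic mice and to between 626 and 1082 in WT. Erythroid markers, 5 globin and heme synthesis genes, summed to between 10.2 and 126 CPM in established Fosl-2(Tg) and between 8.94 and 20.1 in established WT mice. These groups overlapped, and the 126 CPM was that of Fosl-2(Tg) replicate 4. Skeletal muscle markers overlapped widely, at 149 to 15164 against 231 to 53897 CPM, and so did the 5 muscle progenitor genes, at 0.101 to 3.35 against 0.251 to 10.6. Cartilage and bone genes summed to 5.12 to 33.0 CPM in established Fosl-2(Tg) and 23.2 to 44.9 in WT mice, and Schwann cell genes to 260 to 660 against 288 to 429. Keratinocyte genes summed to 11.4 to 24.1 against 18.6 to 31.7 CPM, with Krt5 and Dsg3 at 0 in all established WT mice. Endothelial genes (3.58 to 25.7 against 4.67 to 51.8), adipocyte genes (0.151 to 1.57 against 0.304 to 2.10) and lymphocyte genes (0.707 to 2.12 against 1.54 to 2.02 CPM) stayed low in both genotypes. The part of these shifts in the Hmga2 difference was not tested. In whole-tissue RNA, a change in the number of cells of a type and a change in the RNA per cell cannot be told apart.

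Hmga1 encodes the other AT-hook protein of the family and overlapped between all 4 groups. It lies on chromosome 17 at 27775449–27782648, plus strand. It ranged from 6.84 through a median of 8.90 to 10.1 CPM in early WT, from 6.40 through 8.19 to 12.8 in early Fosl-2(Tg), and from 6.91 through 7.71 to 12.6 in established WT mice. In established Fosl-2(Tg) mice it ranged from 8.01 through 12.7 to 21.1 CPM, with 6 of 7 mice above the WT mean and 4 above every WT mouse, so that the groups overlapped. The means were 12.7 ± 4.29 CPM (SD, n = 7) and 8.39 ± 2.12 (n = 6), and the fitted log2 fold change was 0.61 (SE 0.22). The established WT mouse at 12.6 CPM was the male, replicate 5, while the 5 females lay between 6.91 and 8.32.

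Reads of Hmga1 carry a limit, since no source used here says that strand was used in counting. The gene shares 671 exon bases with Smim29 on the opposite strand, a gene of a small membrane protein. Smim29 rose in established Fosl-2(Tg) tendon from 5.61 ± 0.861 (SD, n = 6) to 7.89 ± 0.955 CPM (n = 7), a log2 fold change of 0.50 (SE 0.12, edgeR adjusted p = 0.0337), a call lost among females alone (adjusted p = 0.0761) and, with adjusted p up to 0.0700, without Fosl-2(Tg) replicate 1 or 3 or WT replicate 1, 2, 3, 4 or 5. How far reads were shared between both genes was not tested. The near-identical copy Hmga1b had at most 8 reads in any library.

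Igf2bp3, the member of the RNA-binding family with the clearest separation of the established groups, lies on chromosome 6 at 49062144–49192447, minus strand. Its levels ranged from 8.12 through a median of 9.62 to 10.2 CPM in early WT and from 8.28 through 9.57 to 12.6 in early Fosl-2(Tg) mice. In established WT mice they ranged from 8.22 through 10.6 to 13 CPM, and in established Fosl-2(Tg) mice from 11.1 through 14.6 to 21.5. All 7 transgenic mice lay above the WT mean and 5 lay above every WT mouse. The means were 15.9 ± 3.86 (SD, n = 7) and 10.7 ± 1.59 CPM (n = 6), with a fitted log2 fold change of 0.57 (SE 0.16). Replicate 5, highest for Hmga2, was also the highest for Igf2bp3. Igf2bp3 shares 1685 exon bases with Malsu1 on the opposite strand, a gene of mitochondrial ribosome assembly, which had a log2 fold change of 0.32 (SE 0.11, edgeR adjusted p = 0.0851) in the same comparison.

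Igf2bp2, the family member that adult tissues commonly keep, lies on chromosome 16 at 21877759–21982499, minus strand, and was the member with the lowest early p. It ranged from 7.44 through a median of 10.1 to 10.4 CPM in early WT and from 8.26 through 10.4 to 16.2 in early Fosl-2(Tg) mice. It ranged from 6.44 through 8.61 to 11.9 CPM in established WT and from 10.4 through 11.5 to 12.8 in established Fosl-2(Tg) mice. All 7 established transgenic mice lay above the WT mean of 8.98 ± 1.86 CPM (SD, n = 6), but only 3 lay above every WT mouse. Their mean was 11.4 ± 0.933 CPM (n = 7) and the fitted log2 fold change was 0.35 (SE 0.13).

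Igf2bp1, on chromosome 11 at 95847989–95896911, minus strand, was barely detected. Its counts lay between 0 and 18 per library, and the group means between 0.171 and 0.335 CPM. It did not pass the filter on low counts in any comparison, so that 4 of the 5 genes were tested and no fold is given. In established Fosl-2(Tg) mice, where Hmga2 was highest, Igf2bp1 had 34 reads in 7 libraries and 1 library, replicate 5, had none. Of the pair of members with 4 let-7 matches each, Igf2bp1 thus had the lowest level of the 5 genes and Hmga2 the highest fold change of the 4 tested.

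**Figure D2:**
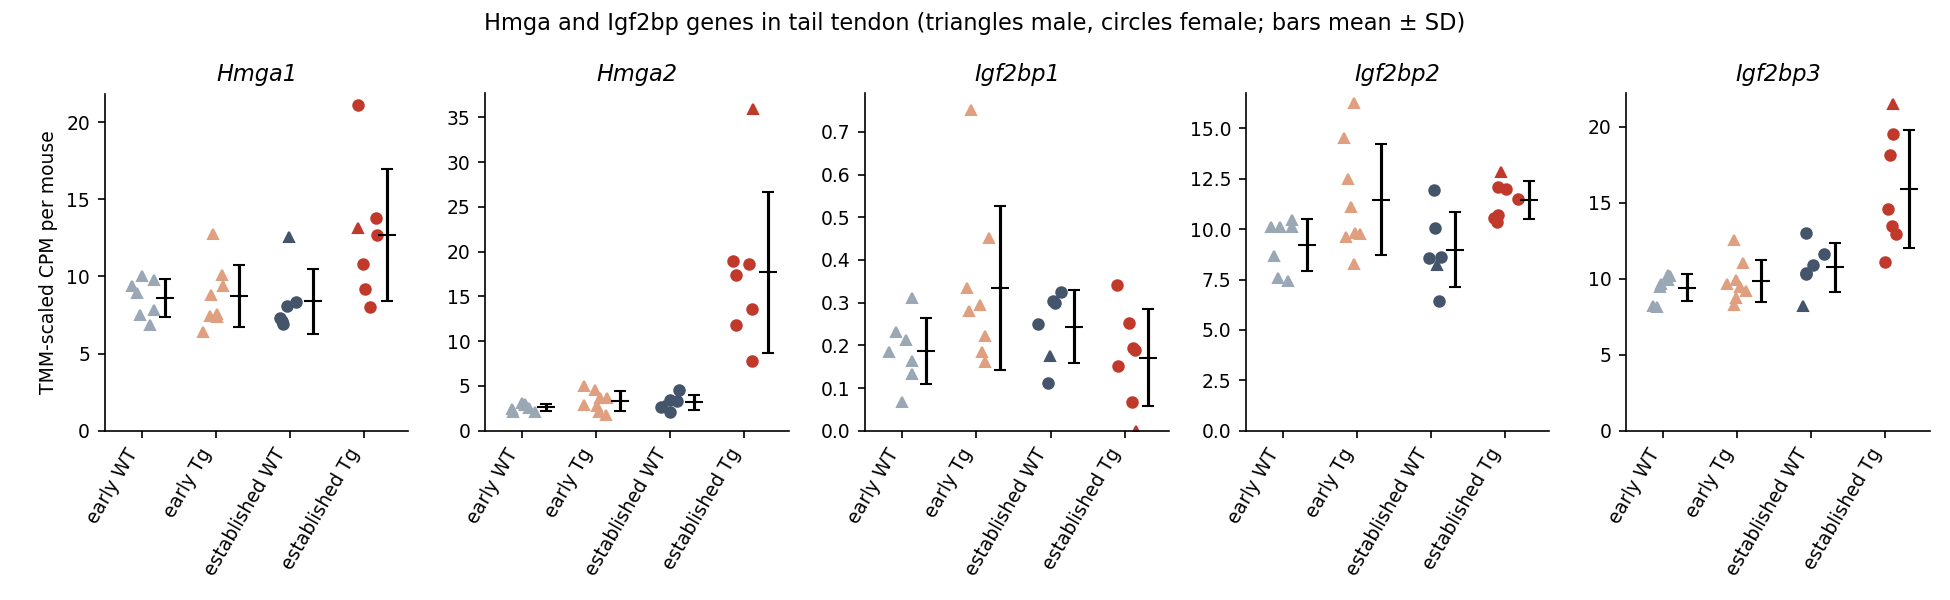
TMM-scaled CPM of the 5 genes in each mouse (triangles male, circles female) by group, with the mean ± SD as black bars; the vertical scales differ between panels. The 7 established Fosl-2(Tg) mice sit between 7.81 and 35.9 CPM for Hmga2, above all others, and overlap the WT mice for the other genes.

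Per kb of annotated exon, which allows genes to be set side by side, Hmga1 had the highest mean level of the 5 in every group. In early WT tendon it had 1.86 ± 0.266 CPM per kb (SD, n = 7), followed by Igf2bp2 at 1.15 ± 0.161, Igf2bp3 at 1.08 ± 0.101, Hmga2 at 0.302 ± 0.0476 and Igf2bp1 at 0.0181 ± 0.00756. Igf2bp2 and Igf2bp3 differed there by less than their spread. Hmga2 ranked 4 in the other groups but 2 in established Fosl-2(Tg) tendon, at 2.05 ± 1.04 CPM per kb (n = 7) between Hmga1 at 2.75 ± 0.928 and Igf2bp3 at 1.82 ± 0.442. These 3 neighbours differed by less than their spread.

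**Figure D3:**
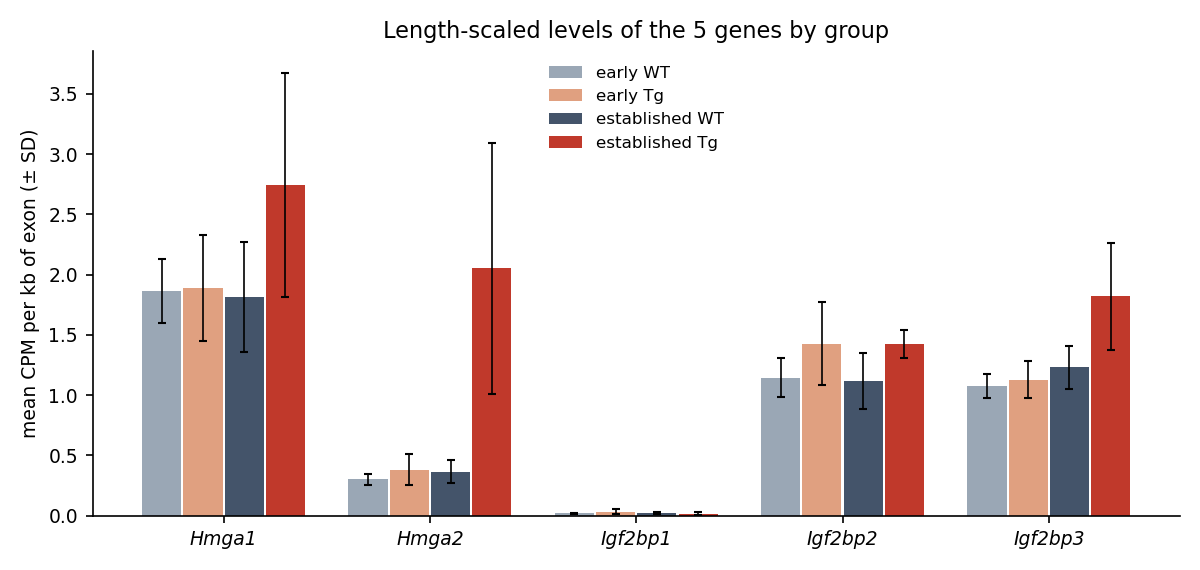
Mean CPM per kb of exon of the 5 genes in the 4 groups, with SD as error bars. Hmga2 stands near 0.302 in early WT and at 2.05 in established Fosl-2(Tg), and Igf2bp1 stays close to 0 in all groups.

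The early comparison asked whether these genes differ between the genotypes at the younger age, and it was not used to choose them. By edgeR's quasi-likelihood test, 0 of the 4 tested members passed an adjusted p (FDR, Benjamini-Hochberg over all genes) of 0.05. Of all 15138 genes tested, 0.0396% passed, which is 6 genes, or 11 under a block for replicate number, and no member was among them under either design or with DESeq2. At an unadjusted p under 0.05 there was 1 member, Igf2bp2, against 6.06% of all genes. Igf2bp2 had a log2 fold change of 0.31 (SE 0.15, unadjusted p = 0.0465, edgeR adjusted p = 0.818), with 7 of 8 transgenic mice above the WT mean. Under the block, in which Fosl-2(Tg) replicate 8 has no WT mouse of its number and carries no weight, Igf2bp2 had 0.36 (SE 0.09, unadjusted p = 0.00331, edgeR adjusted p = 0.228) and still did not pass. Hmga2 had a log2 fold change of 0.33 (SE 0.21, edgeR adjusted p = 0.847) with a 95% interval from -0.10 to 0.77, and 6 of 8 transgenic mice lay above the WT mean. The difference between the stages was not tested, since the established comparison chose the genes. Igf2bp3 and Hmga1 had log2 fold changes of 0.07 (SE 0.10, edgeR adjusted p = 0.927) and 0.02 (SE 0.15, edgeR adjusted p = 0.984).

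In the established comparison 2 of the 4 tested members, Hmga2 and Igf2bp3, were past the same threshold, against 6.51% of the 15862 genes in either direction and 3.14% with higher levels. This count comes from the comparison that chose the genes, so it is no test of them and nothing is read from it. It rested on the mice included: leaving out any established WT mouse, or any of Fosl-2(Tg) replicates 1, 2, 3, 5 and 6, left 1 member. The log2 fold change of Hmga2 lay between 2.23 and 2.63 as each mouse was left out and was 2.19 among the 11 females. Scaling by library totals alone moved the median log2 fold change of all genes to 0.33, and Hmga2 to 2.85, which is 2.52 above that median. The WT mice in this comparison also enter the next one.

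The comparison of established with early WT mice asked how these genes change with age in tendon without the transgene. Again 0 of the 4 tested members passed by edgeR's quasi-likelihood test, against 4.74% of 15645 genes, and none had an unadjusted p under 0.05, against 22.0% of genes. DESeq2 also called 0. Hmga2 had a log2 fold change of 0.27 (SE 0.17, edgeR adjusted p = 0.378, 95% interval from -0.10 to 0.64), with 5 of 6 established mice above the early mean. That value was 0.14 without established WT replicate 1 and lay between 0.09 and 0.49 over the other settings. Igf2bp3 had 0.19 (SE 0.11, edgeR adjusted p = 0.308), with 5 of 6 above the early mean. Igf2bp2 and Hmga1 each had -0.03 (SE 0.14 and 0.15, edgeR adjusted p = 0.928 and 0.924). Sex and stage could not be separated well here, and with sex as a covariate, which rests on 1 established male, the values became 0.56 for Hmga1 and -0.18 for Igf2bp3, and no gene of the transcriptome passed by edgeR, with 1374 at an unadjusted p under 0.05.

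**Figure D4:**
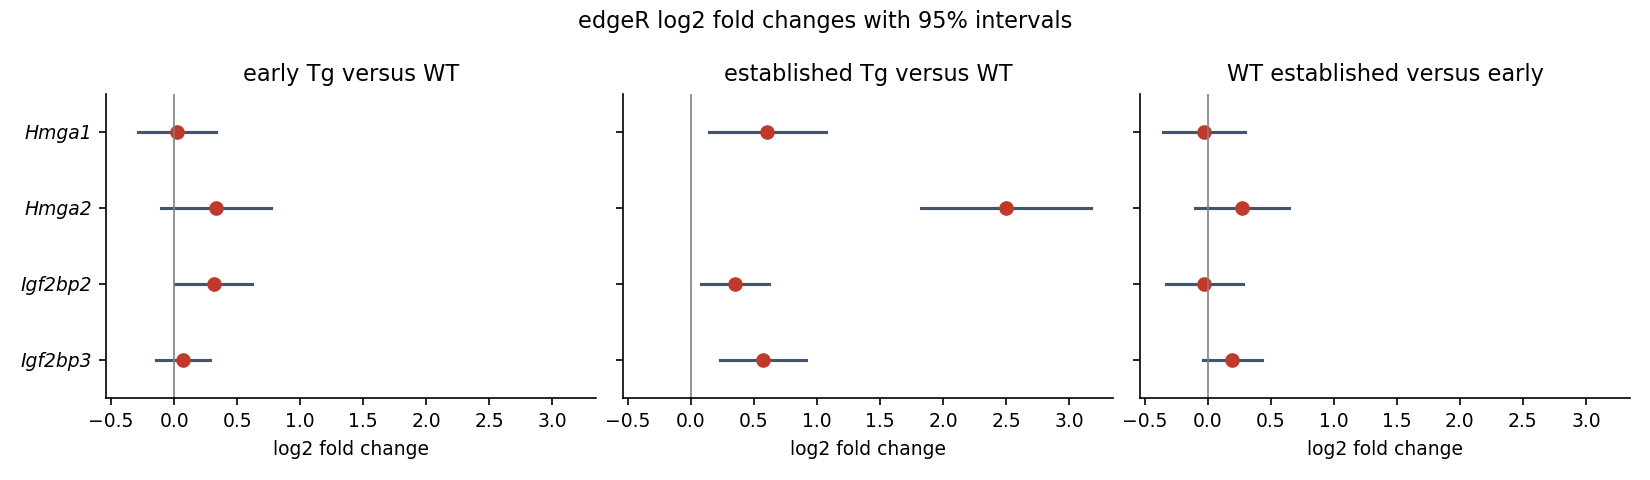
Fitted log2 fold changes of the 4 tested genes (points) with 95% intervals (lines) in the 3 comparisons. Hmga2 in the established comparison, at 2.50, stands apart, and this panel describes the comparison by which the genes were chosen; the early and WT panels show 0 calls.

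Genes known as partners of these families were examined in the same fits. Igf2, the growth factor whose mRNA names the Igf2bp family, had 6.34 ± 1.61 CPM (SD, n = 7) in established Fosl-2(Tg) and 6.07 ± 1.98 (n = 6) in WT mice, a log2 fold change of 0.08 (SE 0.21, edgeR adjusted p = 0.835). It had -0.11 (SE 0.34, edgeR adjusted p = 0.972) in early mice and -0.72 (SE 0.39, edgeR adjusted p = 0.294) with stage in WT. The genes of the let-7 blockers, Lin28a and Lin28b, had at most 2 and 6 reads in any library and were not tested. H19 was not found among the named genes of the counts.

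The let-7 pathway list held 32 genes: known targets, Lin28 genes and microRNA processing factors. Of these, 28 were tested, and the Lin28 genes were not among them. In established Fosl-2(Tg) tendon 1 rose and 1 fell, where 3.14% and 3.37% of all genes did, and the list's median log2 fold change was 0.01, beside 0.01 over all genes. Irs2, an adaptor of insulin and IGF receptors, rose from 81.1 ± 15.4 CPM (SD, n = 6) to 144 ± 45.0 (n = 7), a log2 fold change of 0.83 (SE 0.20, edgeR adjusted p = 0.0309). Drosha, the nuclease that cuts primary microRNAs, fell to 44.5 ± 3.23 CPM from 55.1 ± 5.18 in WT (log2 fold change -0.30, SE 0.08, edgeR adjusted p = 0.0330). Both calls were lost among females alone, with adjusted p of 0.0676 and 0.0790 in edgeR, and Drosha had 0.017 with library totals only. They were also lost, with adjusted p up to 0.0676 and 0.0704, without Fosl-2(Tg) replicate 1 or 2 or WT replicate 1, 2, 4 or 5, that of Irs2 also without WT replicate 6 and that of Drosha without Fosl-2(Tg) replicate 3 or WT replicate 3. With stage in WT tendon, 1 gene of this list rose and 2 fell by edgeR, where 4.74% of all genes were called in either direction. At an unadjusted p under 0.05 there were 8 of 28, beside 22.0% of all genes, and DESeq2 called 6. The nuclear receptor gene Nr6a1 rose by a log2 fold change of 0.53 (SE 0.13, edgeR adjusted p = 0.0352) and the cyclin gene Ccnd2 had -0.99 (SE 0.24, edgeR adjusted p = 0.0355). Neither passed with sex as a covariate, where the edgeR adjusted p was 0.586 and 0.512. Leaving out early WT replicate 6 or 7 or established WT replicate 1, 3, 4 or 5 ended both calls, as did early replicate 4 or 5 for Ccnd2 and 2 or 4 for Nr6a1, with adjusted p of at most 0.0886. Nr6a1 holds 8 let-7 matches, the most among the 12 genes with at least 4.

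Over the transcriptome, genes with let-7 matches were compared by class, with the 5 members left out. Of 223 tested genes with 2 or more matches, 4.93% (11 genes) were higher and 2.24% (5 genes) lower in established Fosl-2(Tg) tendon at the same threshold. Of the 6 tested genes with 4 or more matches, 0 were called. Of 1442 genes with 1 match, 3.12% were higher and 3.47% lower. Of 12272 genes with no match, 3.13% were higher and 3.63% lower. The median log2 fold change was 0.00 with 2 or more matches and -0.01 with none. The difference between the classes was not tested.

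Of the list of IGF2BP partners, bound transcripts and m6A machinery (the enzymes and readers of the methyl mark on mRNA that IGF2BP proteins recognize), 26 of 27 genes were tested. In established mice 1 fell and 0 rose, the median log2 fold change was 0.06, and 10 of 26 had an unadjusted p under 0.05, beside 26.6% of all genes. The one that fell was Mapk4, a kinase gene whose mRNA is a target of IGF2BP1, from 16.3 ± 5.78 (SD, n = 6) to 7.25 ± 1.96 CPM (n = 7), a log2 fold change of -1.16 (SE 0.23, edgeR adjusted p = 0.0165, and at most 0.0363 whichever mouse was left out). With stage in WT, edgeR called 0 of the 26, beside 4.74% of all genes. There was 1 at an unadjusted p under 0.05, beside 22.0% of all genes, and DESeq2 called 1.

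Of 22 imprinted fetal growth genes, 18 were found among the named genes of the counts and 14 were tested in established mice. Of these, 1 fell and 0 rose, with 3 of 14 at an unadjusted p under 0.05. Over all genes, 3.37% were called lower, 3.14% higher and 26.6% were at that unadjusted p. The gene that fell was Gnas, the gene of a stimulatory G protein subunit, from 706 ± 55.3 (SD, n = 6) to 485 ± 89.2 CPM (n = 7), a log2 fold change of -0.54 (SE 0.13, edgeR adjusted p = 0.0285). The call was lost among females alone (edgeR adjusted p = 0.0542) and, at up to 0.0614, without Fosl-2(Tg) replicate 1 or 2 or WT replicate 1, 2, 5 or 6. With stage in WT, Rtl1, a retrotransposon-derived gene needed in placenta and fetal muscle, fell to 8.12 ± 3.66 CPM (n = 6) from 30.7 ± 12.3 (n = 7), with a log2 fold change of -1.92 (SE 0.34, edgeR adjusted p = 0.00992, and 0.526 with sex as a covariate). It was past the threshold whichever mouse was left out, and was the 1 call of 15 tested, beside 4.74% of all genes in either direction. The list's median was -0.23, beside 0.01 over all genes.

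Of 23 HMGA-linked genes and other HMG proteins, 22 were tested in established mice, and 1 rose and 2 fell, beside 3.14% and 3.37% of all genes. Plag1, a growth-promoting zinc finger gene that acts downstream of HMGA2, rose from 2.95 ± 0.388 (SD, n = 6) to 4.56 ± 0.927 CPM (n = 7), a log2 fold change of 0.63 (SE 0.15, edgeR adjusted p = 0.0292, and 0.0669 among females alone). It also rose with stage in WT by 0.60 (SE 0.15, edgeR adjusted p = 0.0403, and 0.627 with sex as a covariate). This was the 1 call among 21, beside 4.74% of all genes in either direction. Both comparisons share the established WT mice. The genotype call was lost, at an edgeR adjusted p of up to 0.0654, without Fosl-2(Tg) replicate 1 or 2 or WT replicate 2, 4, 5 or 6, and the stage call, at up to 0.0948, without any of 9 of the 13 mice, which were early replicates 1, 4, 5, 6 and 7 and established replicates 1, 3, 4 and 5. Hmgn2, a nucleosome-binding HMG gene, fell to 14.05 ± 2.37 CPM from 24.0 ± 2.76 in WT (log2 fold change -0.77, SE 0.12, edgeR adjusted p = 0.00796), and the groups did not overlap, at 19.8 to 27.4 against 9.38 to 17.1 CPM, as for 2.33% of genes with lower levels in Fosl-2(Tg). Hmgb3, of the HMG box family, fell from 4.43 ± 0.649 to 2.97 ± 0.607 CPM (log2 fold change -0.57, SE 0.15, edgeR adjusted p = 0.0449, and 0.0983 among females alone). That call was lost, at up to 0.0944, without any mouse other than Fosl-2(Tg) replicates 4 and 7 and WT replicate 3, while the call of Hmgn2 held whichever mouse was left out, with an edgeR adjusted p of at most 0.0245.

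Of 22 proliferation genes, 20 were tested in established mice, and 2 rose and 0 fell, beside 3.14% and 3.37% of all genes. Both encode subunits of the MCM helicase that opens DNA for replication. Mcm7 rose from 19.4 ± 2.37 (SD, n = 6) to 34.1 ± 12.6 CPM (n = 7), a log2 fold change of 0.81 (SE 0.20, edgeR adjusted p = 0.0310), and Mcm6 rose to 21.1 ± 2.44 CPM from 15.6 ± 0.897 (log2 fold change 0.44, SE 0.09, edgeR adjusted p = 0.0152). The call of Mcm7 was lost, at an edgeR adjusted p of up to 0.0676, without Fosl-2(Tg) replicate 1 or WT replicate 1, 2, 4, 5 or 6, and that of Mcm6 held whichever mouse was left out. For both genes every established transgenic mouse lay above every established WT mouse, as for 1.48% of all genes. The list's median was 0.25, and 18 of 20 genes had a positive log2 fold change, beside 50.7% of all genes. The exceptions were Mki67 at -0.02 (SE 0.45, edgeR adjusted p = 0.984) and Top2a at -0.006 (SE 0.71, edgeR adjusted p = 0.997). Whether more cells divided was not tested. In early mice the list's median was 0.26 with 14 of 21 positive, but edgeR and DESeq2 both called 0. There were 2 at an unadjusted p under 0.05, beside 6.06% of all genes. With stage in WT, edgeR called 0 of 21, beside 4.74% of all genes. There were 2 at an unadjusted p under 0.05, beside 22.0% of all genes, and DESeq2 called 1.

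In the early comparison edgeR and DESeq2 called 0 genes in each of the other 4 lists as well. At an unadjusted p under 0.05 there was 1 gene of the let-7 list, 2 of the HMGA-linked list and 0 of the imprinted and IGF2BP lists. Over all genes the share was 6.06%.

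**Figure D5:**
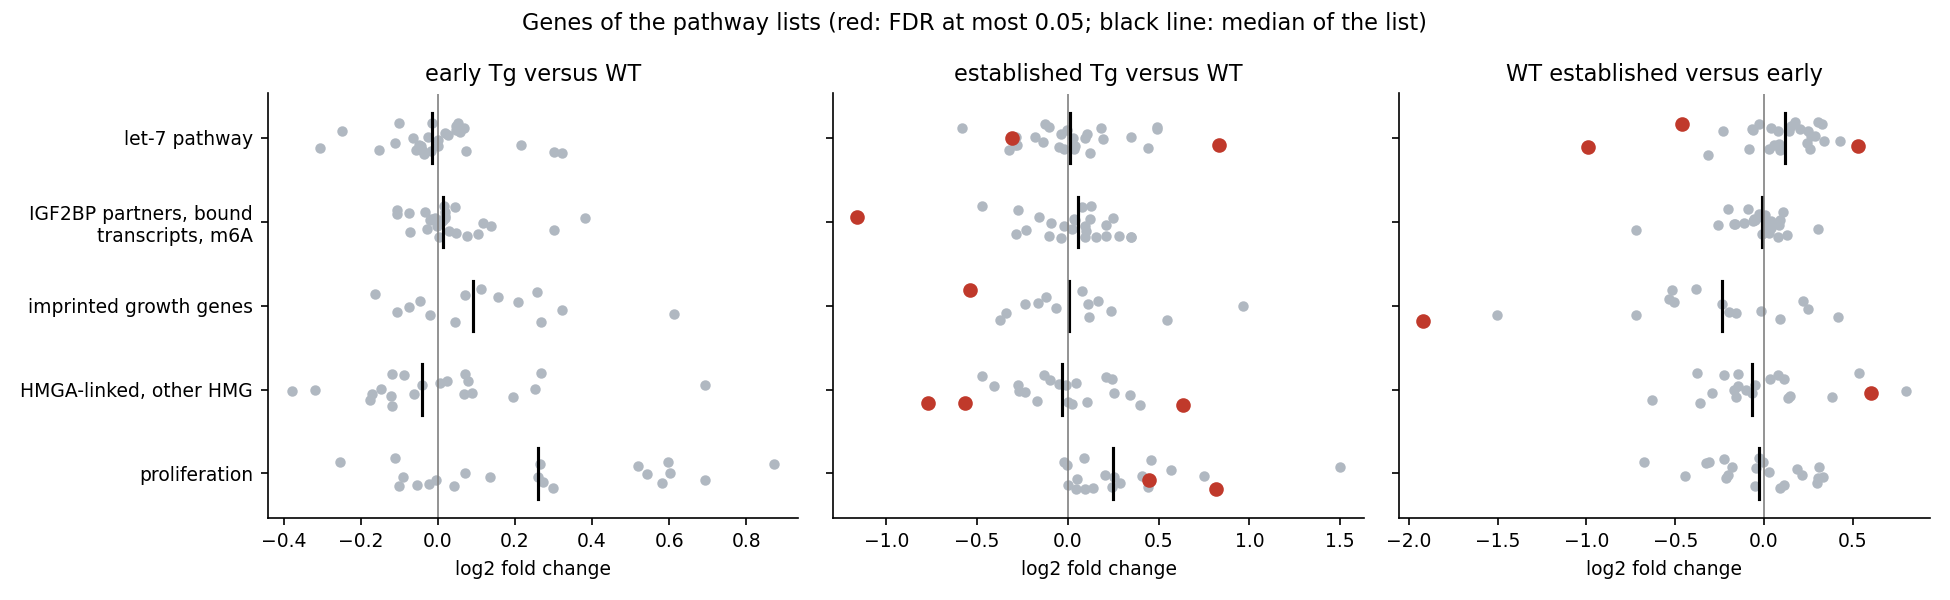
Log2 fold changes of the tested genes of the 5 lists in the 3 comparisons (red points passed an edgeR adjusted p of 0.05, black lines are list medians; horizontal scales differ between panels). In established mice the proliferation genes lie mostly to the right, with a median of 0.25, and the early panel holds 0 red points.

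The genes whose levels varied most like Hmga2 between mice of the same group were Cbll1, Inip and Bach1. Pearson's r of log2 CPM, after the group mean was removed, was 0.72, 0.70 and 0.70 over 28 libraries, the highest among 14572 genes with a mean of at least 1 CPM. Libraries share depth and tissue composition, and these values are descriptions. Cbll1 encodes a ubiquitin ligase of the m6A writer complex, Inip a subunit of a complex that binds single-stranded DNA, and Bach1 a heme-regulated transcription factor. Cbll1 ranged from 12.3 to 18.3 CPM in established Fosl-2(Tg) and from 13.6 to 15.1 in established WT mice. Inip ranged from 9.02 to 13.7 against 10.6 to 12.6 CPM, so that both genes overlapped between the genotypes. Bach1 ranged from 68.9 to 116 CPM in established Fosl-2(Tg) and from 52.4 to 62.6 in established WT mice, without overlap, as for 1.48% of genes with Fosl-2(Tg) higher. Among the members, Igf2bp3 ranked 78 with r = 0.55, Hmga1 1845 with 0.26 and Igf2bp2 2456 with 0.22.

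The promoters of 4 of the 5 genes, from 250 bases before to 50 after the start, were found in the RefSeq promoter table. None held the AP-1 motif TGANTCA, searched on both strands, which 8.97% of 27025 genes held, and this says only that these letters are not in that window.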

How the data were processed

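Total RNA of tail tendon fascicles was depleted of rRNA and sequenced, 1 library per mouse, with the NEBNext Ultra RNA kit per the labels. The authors used STAR with GRCm39 and the M26 annotation of GENCODE for mapping and featureCounts for counting. The deposited tables hold the resulting whole-number counts, not normalized. The submitters' processing notes also name DESeq2. Settings for strand and for reads with several positions were not given in the sources used here. The later M39 release of GENCODE gave a name to 25505 of 25719 identifiers and none to 214.

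Groups, sex and replicate numbers were taken from the labels and ages from the study's description of its cohorts. Within the 2 groups of each comparison, counts were filtered with filterByExpr (minimum count 10, minimum total 15), scaled by TMM and tested with the quasi-likelihood test of edgeR 4.0.16 (R 4.3.3), two-sided, the p-values of all tested genes were adjusted after Benjamini and Hochberg, and a gene was called at an adjusted p (FDR) of at most 0.05. CPM per mouse were scaled over all 28 libraries. On simulated counts, 98.0% of changed genes were recovered for the early, 97.5% for the established and 94.5% for the WT comparison. Of the calls, 4.88%, 4.41% and 9.13% were false, in the same order. Recovery was not split by size of fold change. For fold changes as small as the early and WT values of the members, recovery was not tested. Alternatives were DESeq2 1.42.0, other scalings and filters, covariates, females alone, a block for replicate number and the omission of each mouse.

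The members and lists were chosen with earlier results of these data known. Named were the 5 members, Fosl2, Igf2, H19, Lin28a and Lin28b, per list and comparison up to 2 called genes per direction with the largest change, and the 3 genes most like Hmga2. A gene that this rule also names is not reported here. Smim29, Malsu1 and Hmga1b were added since they share sequence with members. Mki67 and Top2a were added as the proliferation genes without a positive established value. Marker lists covered tendon fibroblast, muscle, muscle progenitor, keratinocyte, erythroid, macrophage, lymphocyte, endothelial, adipocyte, Schwann cell, and cartilage and bone genes.

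The labels do not say what a replicate number stands for. In the early comparison the deviations of all 7 same-numbered pairs from their group means correlated, with r from 0.16 to 0.41. The main fit did not pair these mice, and the block for replicate number was run beside it as an alternative. The p-values come from setting the difference between groups against the spread among mice of a group. Library totals were 9645598 to 66894396 counts, and precision is lowest for genes with few reads.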

Additional observations from a re-analysis of the deposited data

Results flagged for a closer look

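In 20 sets of values, 5 genes by 4 groups, 2 held a mouse far from the rest by Dixon's criterion, which flags about 1 in 20 groups by chance. Hmga1 was 12.6 CPM in established WT replicate 5, and the gap to the nearest mouse took 0.750 of the group's range (limit 0.625). Hmga2 was 35.9 CPM in established Fosl-2(Tg) replicate 5, with a gap of 0.605 of the range (limit 0.568). Both are the single male of their group. Their libraries also had the lowest median Spearman correlation with the others of their group, 0.951 in WT and 0.934 in Fosl-2(Tg). Their summed skeletal muscle markers, 53897 and 15164 CPM, were the highest of each group. The part of these traits in the flagged values was not tested. The female means were 7.55 ± 0.627 CPM (SD, n = 5) for Hmga1 in WT and 14.7 ± 4.41 (n = 6) for Hmga2 in Fosl-2(Tg) mice. The male WT mouse had 2.77 CPM of Hmga2, within the female range of 2.13 to 4.55, and the male Fosl-2(Tg) mouse had 13.1 CPM of Hmga1, within 8.01 to 21.1. With 1 male per group, sex was not tested.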

How the results depend on the processing

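Precision was limited by the groups of 6 to 8 mice and, for Igf2bp1, by counts of 0 to 18. The number of established members past the threshold, 2, became 1 with RLE scaling, without a filter and among females only, 3 with 4 groups in 1 fit and with the muscle score as covariate, and 4 with library totals only, a scaling chosen after the data were seen. It was 1 to 2 as each mouse was left out. This count comes from the comparison that chose the genes and is no test of them. The count of members in the early and WT comparisons was 0 in every alternative run. The established log2 fold changes of the 4 members stayed positive in all alternatives, from 2.19 to 2.85 for Hmga2, 0.43 to 0.94 for Hmga1, 0.41 to 0.90 for Igf2bp3 and 0.27 to 0.68 for Igf2bp2.

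Library totals only moved the median log2 fold change of all genes to -0.19 in early, 0.33 in established and 0.23 in WT mice. Under it, directions turned in the early comparison for Hmga1 (-0.13), Igf2bp3 (-0.12), Malsu1 (-0.19) and Smim29 (-0.15), in the established for Drosha (0.017), and in the WT for Hmga1 (0.20) and Igf2bp2 (0.19). Relative to that median, the established values were 2.52 for Hmga2, 0.61 for Hmga1, 0.57 for Igf2bp3 and 0.35 for Igf2bp2.

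With the muscle score as covariate early Hmga1 was -0.022. With sex as covariate the WT stage values turned for Hmga1 (0.56), Igf2bp3 (-0.18), Fosl2 (-0.18) and Malsu1 (-0.081), and with DESeq2 for Malsu1 (-0.0014). As single mice were left out, values near 0 changed sign: in the early comparison Hmga1 (-0.076 to 0.077), Igf2 (-0.28 to 0.13), Malsu1 (-0.071 to 0.032) and Smim29 (-0.0053 to 0.11), in the established Igf2 (-0.0054 to 0.25), and in the WT Hmga1 (-0.19 to 0.022), Igf2bp2 (-0.13 to 0.047) and Malsu1 (-0.041 to 0.043). The cause of these turns was not tested.

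With the replicate block, the members called were 0 in early and 0 in WT mice, as without it. The established count was 2 under the block, a description from the comparison that chose the genes. Same-numbered mice correlated with r from -0.28 to 0.73 in the established and -0.71 to 0.76 in the WT comparison, where they share only a number. The block moved all calls from 1032 to 924 and from 742 to 441. It ended the established calls of Smim29, Drosha, Gnas and Plag1 and the WT calls of Ccnd2, Nr6a1 and Plag1.

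Over all genes, the calls were 25 with DESeq2 and 11 with the block against 6 in early mice. Against 1032 in established mice they were 2177 with DESeq2, 1663 with 4 groups in 1 fit, 1685 with the muscle score and 560 in females. Against 742 in the WT comparison they were 1622 with DESeq2, 1275 with the muscle score, 0 with sex (1374 at an unadjusted p under 0.05) and 441 with the block. Library totals only turned the split of higher and lower calls from 1 and 5 to 0 and 5, from 498 and 534 to 7236 and 308, and from 310 and 432 to 1007 and 136. Established calls in the let-7, IGF2BP, imprinted, HMGA-linked and proliferation lists ranged from 0 to 17, 1 to 18, 0 to 6, 1 to 7 and 2 to 9 over these settings, highest under library totals, and WT calls from 0 to 6, 0 to 1, 0 to 2, 0 to 3 and 0 to 1.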
